A study of Arabidopsis thaliana with 18 samples.

Results

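Arabidopsis thaliana makes most of its defence hormone salicylic acid (SA) from isochorismate, and 5 genes of that route and of its control are described here across 6 groups of plants. They are ICS1 (AT1G74710, probe set 262177_at), EDS5 (AT4G39030, 252921_at), PBS3 (AT5G13320, 250286_at), CBP60g (AT5G26920, 246821_at) and SARD1 (AT1G73805, 260046_at). They were chosen by their probe set identifiers, 5 of 22810 on the array, for their place in the pathway. No measured value entered that rule, but earlier results of these data were known when it was made. The platform annotation used here lists none of the 5 probe sets, so their gene names rest on the pairing of identifier and locus in that choice. The gene table of assembly TAIR10.1 holds all 5 loci, with ICS1 under the symbol EDS16. No coordinates are given because no genome build is named for the array.

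All plants were of the natural accession Kin-0, and no mutant or transgenic line was used. Treated plants received SA at 0.30 mM, dissolved in 0.02% silwet, a surfactant that spreads a solution over plant surfaces. Control plants received 0.02% silwet without SA. RNA was taken 4, 28 and 52 h after treatment, with 3 biological replicates in each group and 1 ATH1 array per sample, 18 in all. The labels name no tissue and no plant age, and do not say whether plants were pooled or what replicates of 1 number shared. Each SA value is read against the silwet plants of its own time, since plants given neither solution were not analysed here.

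In this route the chloroplast enzyme isochorismate synthase, encoded by ICS1, turns chorismate into isochorismate. EDS5 is a transporter of the MATE family in the chloroplast envelope that carries isochorismate to the cytosol, where PBS3, an enzyme of the GH3 family, joins it to glutamate. The product then breaks down to SA. CBP60g and SARD1 are related transcription factors of the CBP60 family that bind and activate the genes of this route during immune responses, and CBP60g, unlike SARD1, binds calmodulin. The genes are known for their induction by pathogens, and SA itself is known to act back on their expression.

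The deposited values were linear MAS5 signals, the summary of the probe pairs of each probe set. The median signal of an array ran from 26.7 to 35.6, and 15212 probe sets passed a filter that asked for a signal above the 40th percentile of the array on at least 3 arrays. The 5 genes were above that level, which lay between 16.0 and 20.7, on all 18 arrays. Differences were tested with limma on log2 signals in 1 fit over the 18 arrays, and adjusted p values are after Benjamini-Hochberg over the 15212 probe sets, with 0.05 as the threshold. In most comparisons same-numbered replicates deviated together from their group means, and those are also given with the replicate number as a block where that changed a call. For SA plants at 28 h against 4 h and for the differences between SA effects they did not in every pair, and the blocked values of these stand with the alternatives in the closing section. Of 40 tissue markers, 7 had a named probe set. RCA, of photosynthetic tissue, had a signal from 1343 to 4055, PYK10, a gene known from roots, 35.5 to 284, and the guard cell genes GC1 and FAMA 129 to 357 and 33.5 to 66.4. EXP7, of root hairs, and SPCH and MUTE, of the stomatal lineage, did not reach the filter level on any of the 18 arrays. The log2 ratio of 3' over 5' control probe sets, a measure of RNA quality, ran from 1.18 to 2.65 and was highest in replicate 2 of SA at 4 h.

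ICS1, the entry enzyme, was highest in silwet plants at 4 h, where its signal was 121, 199 and 209.9 in replicates 1 to 3. After SA at 4 h it was 74.1, 93.7 and 142. The SA array was the lower one in each of the 3 replicate numbers, although the ranges of both groups overlapped. At 28 h the signal was 40.6, 53.3 and 106 after silwet and 73.4, 60.4 and 101.3 after SA. At 52 h it was 28.1, 41.5 and 64.3 after silwet and 35.8, 47.6 and 111 after SA, so that the SA array was the higher one in each replicate number. On the log2 scale the groups ran, from high to low, silwet 4 h, SA 4 h, SA 28 h, silwet 28 h, SA 52 h and silwet 52 h. The step from silwet to SA at 4 h (0.79) exceeded the pooled SD of both groups (0.46), and none of the later steps did. Such steps, here and for the genes below, join neighbours in an order set by the means. They are held against the spread of single arrays, so they are descriptions and no test. Limma without a block gave the step at 4 h an unadjusted p of 0.0989. Groups further apart in the order can differ by more, as silwet at 28 h against 4 h (log2 change -1.49, without overlap).

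EDS5, the transporter, had a signal of 199, 357 and 537 after silwet and 174, 304 and 619.7 after SA at 4 h. These were the highest groups, and they lay 0.072 apart on the log2 scale, against a pooled SD of 0.83. At 28 h the values were 39.96, 61.3 and 112 after silwet and 84.0, 66.1 and 158 after SA. All 6 arrays of 28 h were below all 6 arrays of 4 h, and SA was the higher array in each replicate number at 28 h. At 52 h the signal was 33.8, 49.8 and 83.2 after silwet and 44.9, 46.2 and 103 after SA. The groups followed the same order as for ICS1, and the step from SA at 4 h to SA at 28 h (1.74 against a pooled SD of 0.80) was the only one larger than the spread.

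PBS3, the conjugating enzyme, had 171, 197 and 276 after silwet and 94.2, 145 and 241 after SA at 4 h. SA was again the lower array in each replicate number, with overlapping ranges. At 28 h the signal was 119.8, 41.3 and 89.5 after silwet and 87.3, 79.7 and 128.2 after SA. At 52 h it was 27.7, 45.6 and 96.7 after silwet and 74.6, 28.7 and 65.3 after SA. Its SD on the log2 scale was 0.36, 0.79 and 0.91 in silwet plants at 4, 28 and 52 h and 0.68, 0.36 and 0.75 in SA plants, with no common order over time. The order of the groups was that of ICS1 and EDS5, and the step from SA 4 h to SA 28 h (0.63) alone exceeded the pooled SD (0.54).

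CBP60g, the calmodulin-binding regulator, had 90.8, 251 and 448 after silwet and 102, 186 and 539 after SA at 4 h. The groups coincided, with a mean log2 signal of 7.76 in each and an SD of 1.17 after silwet and 1.22 after SA. At 28 h the signal was 67.7, 95.7 and 197 after silwet and 62.7, 97.5 and 175 after SA. At 52 h it was 50.5, 77.7 and 165 after silwet and 58.0, 51.6 and 191.5 after SA. Replicate 3 was the highest array in every group, and SA and silwet groups of 1 time were never further apart than 0.084 on the log2 scale. In the order of the groups only the step from silwet 4 h to silwet 28 h (0.999) exceeded the pooled SD (0.994).

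SARD1, the other regulator, was the one of the 5 whose SA group stood clearest above its silwet group at 4 h. Its signal was 593, 513 and 815 after SA and 223, 363 and 545 after silwet. The SA array was the higher one in each replicate number, and only silwet replicate 3 reached into the range of the SA arrays. At 28 h the signal was 146, 144 and 214 after silwet and 114, 162 and 261 after SA. At 52 h it was 93.2, 156 and 207 after silwet and 101.3, 150.5 and 245 after SA. The steps from SA 4 h to silwet 4 h (0.83, pooled SD 0.52) and from silwet 4 h to SA 28 h (1.07, pooled SD 0.62) exceeded the spread, and the later steps among the 4 groups of 28 and 52 h did not.

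**Figure D1:**
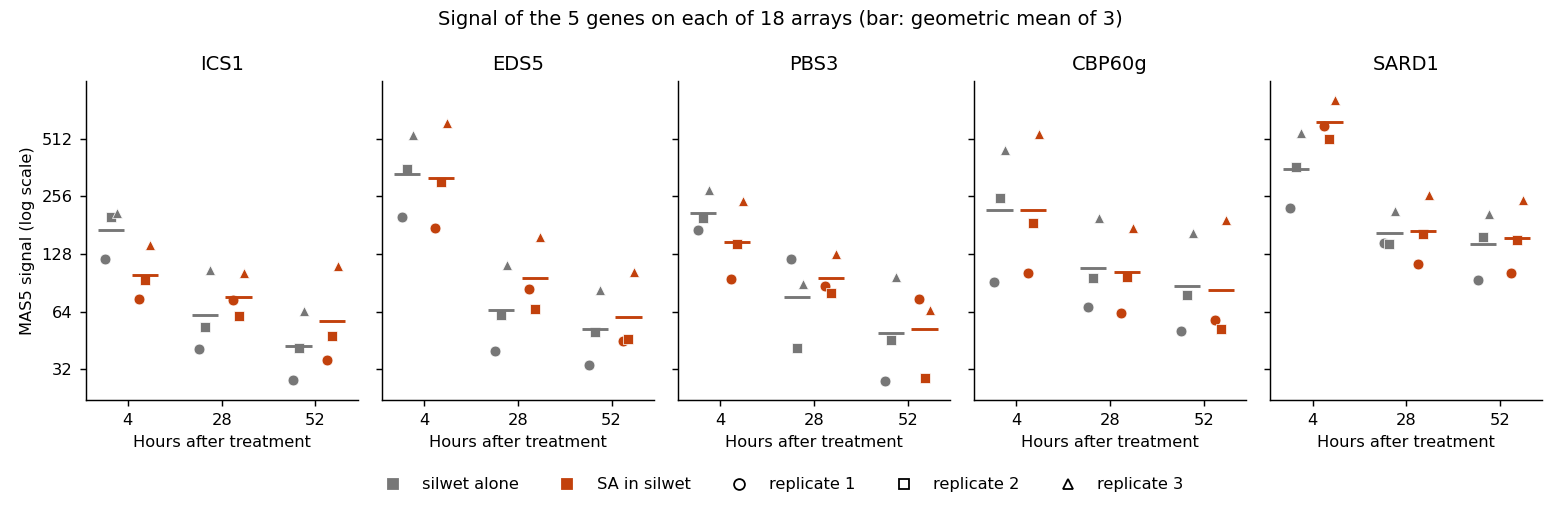
MAS5 signal on a log scale of the 5 genes on each array, against hours after treatment, with silwet alone in grey and SA in silwet in orange, replicate numbers as symbols and the geometric mean of each group of 3 as a bar. All 5 genes are highest at 4 h, ICS1 is lower after SA than after silwet at 4 h (142 at most against 209.9 at most) and SARD1 is higher (815 against 545).

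The first comparison asks how SA changed the genes at each time. At 4 h SARD1 was 1.78-fold higher after SA (log2 change 0.83, SE 0.41) and ICS1 was 1.73-fold lower (log2 change -0.79, SE 0.45). PBS3 had -0.50 (SE 0.50), EDS5 -0.072 (SE 0.54) and CBP60g 0.0024 (SE 0.72). EDS5 turned to 0.036 when arrays were centred on their medians, and CBP60g to -0.13 without the replicate 3 arrays. Limma called 0 of the 5 genes without a block (the lowest adjusted p was 0.428, and 0 had an unadjusted p under 0.05), where it called 0.795% of all probe sets, 0.473% as higher. With the replicate number as a block it called 2 of the 5, SARD1 (adjusted p = 0.0190, SE 0.19) as higher and ICS1 (adjusted p = 0.0438, SE 0.22) as lower, where it called 6.65% of all probe sets, 2.99% higher and 3.66% lower. The median change of the 5 genes was -0.072 and that of all probe sets -0.089. Centring on array medians moved the latter by 0.11 and the share of higher calls from 59.5% to 72.5%, and ICS1 was at -0.68 and SARD1 at 0.94 after it.

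Both blocked calls were lost without some single arrays, while the log2 changes kept their signs. The calls also take the replicate numbers to pair arrays. Deviations of the SA and silwet arrays of 4 h from their group means correlated at only 0.18 in replicate 2. With 1 array left out of the blocked fit they ran from -0.97 to -0.59 for ICS1 and from 0.60 to 0.96 for SARD1. ICS1 passed only without silwet 4 h replicate 3 (adjusted p = 0.0345) and missed the threshold without any other of the 6 arrays (up to 0.201). SARD1 missed it without SA replicate 1, silwet replicate 1 or silwet replicate 2 (up to 0.112). The groups also differed in the 3' over 5' control ratio, with a mean of 2.04 after SA and 1.65 after silwet at 4 h. With that ratio as a covariate beside the block SARD1 passed (adjusted p = 0.0218) and ICS1 did not (adjusted p = 0.0664). Markers of other cell types also differed between these groups without passing. The mean signal of PYK10 was 107 after SA and 201 after silwet (log2 difference -0.98, adjusted p = 0.324, and 0.158 with the block). GC1 was at 0.57 (adjusted p = 0.315, and 0.0839 with the block), FAMA at -0.47 (0.391 and 0.174) and RCA at -0.19 (0.904 and 0.627). Their part in the values of ICS1 and SARD1 was not tested. None of the 5 genes had SA and silwet arrays of 4 h that did not overlap, which 18% of all probe sets had. These are whole samples, so fewer cells that express a gene and less RNA per cell cannot be told apart.

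At 28 h and 52 h limma called 0 of the 5 genes, with or without the block, and 0% of all probe sets. At 28 h EDS5 had the largest value, 1.47-fold higher after SA (log2 change 0.56, SE 0.54), with an unadjusted p of 0.320 from limma that was 0.0173 with the block (adjusted p = 1). ICS1 had 0.32, PBS3 0.34, SARD1 0.032 and CBP60g -0.084. At 52 h ICS1 had the largest, 0.44 (SE 0.45, unadjusted p = 0.339 from limma and 0.0628 with the block), and the other 4 lay between -0.058 and 0.20. Without SA replicate 3, the highest of its group, ICS1 was at -0.032. The 95% intervals without the block reached from -0.51 to 1.39 for ICS1 and from -0.76 to 0.97 for SARD1 at 52 h, so changes of the size seen at 4 h in SARD1 lay within the interval. With the block the interval of SARD1 at 52 h was -0.30 to 0.51. Of the 5 genes limma gave none an unadjusted p under 0.05 at either time without the block, and with it 1 at 28 h and 0 at 52 h, where 141 and 642 of all probe sets had one.

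**Figure D2:**
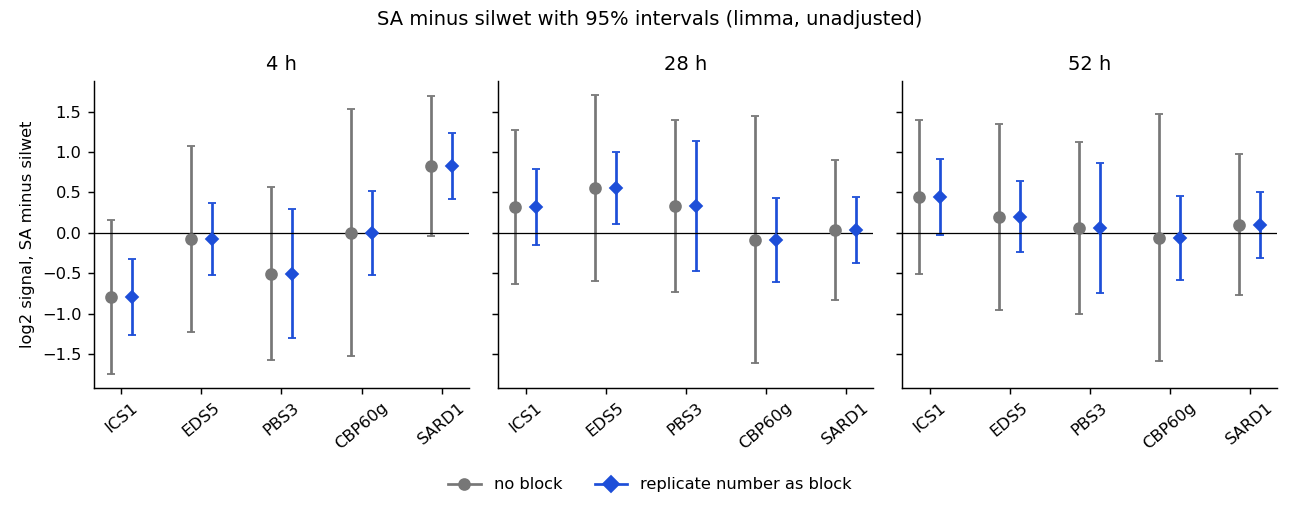
Log2 signal after SA minus that after silwet at 4, 28 and 52 h for each gene, with 95% limma intervals without a block (grey circles) and with the replicate number as a block (blue diamonds). At 4 h the blocked intervals of ICS1 (-1.26 to -0.32) and SARD1 (0.42 to 1.24) lie on opposite sides of 0, and those of EDS5, PBS3 and CBP60g include it.

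Whether the SA effect itself differed between times was tested as a contrast of contrasts. For ICS1 the effect at 28 h minus that at 4 h was 1.11 (SE 0.63) and that at 52 h minus that at 4 h was 1.23 (SE 0.63). For SARD1 the differences were -0.80 and -0.73 (SE 0.58 for both). PBS3 had 0.84 and 0.57, EDS5 0.63 and 0.28, and CBP60g -0.086 and -0.061. Without a block limma called 0 of the 5 genes in either contrast (the lowest adjusted p were 0.896 and 0.890, and 0 had an unadjusted p under 0.05), where 0.0263% of all probe sets were called in each. Both contrasts use the same 6 arrays of 4 h.

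The next comparison asks how the genes changed with time in plants that had received silwet alone. All 5 were lower at 28 h than at 4 h, in each of the 3 replicate numbers. EDS5 had the largest difference, 5.17-fold (log2 change -2.37, SE 0.54), followed by ICS1 (-1.49, SE 0.45), PBS3 (-1.46, SE 0.50), SARD1 (-1.10, SE 0.41) and CBP60g (-0.999, SE 0.72). The arrays of both times did not overlap for 4 of the 5 genes, all but CBP60g, against 11.8% of all probe sets, 7.35% of them lower at 28 h. Without a block limma called 0 of the 5 (4 had an unadjusted p under 0.05, and the lowest adjusted p was 0.0652, for EDS5) and 0.605% of all probe sets. With the replicate number as a block all 5 fell (adjusted p = 1.12e-05 for EDS5, 0.00112 for ICS1, 0.00343 for SARD1, 0.0294 for CBP60g and 0.0383 for PBS3), and 4.3% of all probe sets were called, 3.45% as lower. The median change of the 5 was -1.46 and that of all probe sets -0.0072.

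With 1 array left out of the blocked fit, EDS5, ICS1 and SARD1 passed in 6 of 6 fits. PBS3 passed only without silwet 28 h replicate 1, whose signal of 119.8 was the highest of that group (adjusted p up to 0.182 in the other fits). CBP60g missed the threshold without silwet replicate 2 or 3 of either time (up to 0.1799). In the fit without a block EDS5 passed without silwet 4 h replicate 1 (adjusted p = 0.0434).

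In plants given SA the 5 genes were likewise lower at 28 h than at 4 h in each replicate number. SARD1 fell 3.72-fold (log2 change -1.90, SE 0.41, adjusted p = 0.00667 in limma without a block) and EDS5 fell 3.35-fold (-1.74, SE 0.54, adjusted p = 0.0477). CBP60g had -1.08 (SE 0.72), PBS3 -0.63 (SE 0.50) and ICS1 -0.38 (SE 0.45), and these did not pass without a block. Limma thus called 2 of the 5 genes, both lower, in a comparison that called 11.6% of all probe sets, 6.24% of them lower. The arrays of both times did not overlap for the same 2 genes, against 26.1% of all probe sets. SARD1 passed whichever of the 6 arrays was left out, and EDS5 missed the threshold without replicate 1 or 2 of SA at 28 h or replicate 2 or 3 of SA at 4 h (up to 0.213). ICS1, PBS3 and EDS5 had smaller differences here than in silwet plants, and CBP60g and SARD1 larger ones. The test of that difference is the contrast of SA effects above, which no gene passed.

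Between 28 h and 52 h every gene was lower on average at 52 h in both treatments, and none passed. In silwet plants the log2 changes ran from -0.62 for PBS3 to -0.19 for SARD1, and in SA plants from -0.89 for PBS3 to -0.12 for SARD1. Limma called 0 of the 5 genes and 0% of all probe sets in both comparisons, with or without the block. An unadjusted p under 0.05 was reached by 0 of the 5 without the block in either, and with it by 1 in silwet plants (ICS1) and by 2 in SA plants (EDS5 and PBS3), where 1048 and 642 of the 15212 probe sets reached it. For PBS3 in SA plants the arrays of 28 h and 52 h did not overlap, as for 4.73% of all probe sets.

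How much of each gene's variation went with time, treatment and replicate number was described by sums of squares over the 18 arrays. Time took 75.9% for EDS5, 68.8% for SARD1, 62.0% for PBS3, 52.1% for ICS1 and 34.0% for CBP60g, against a median of 16.9% over all probe sets tested. Treatment averaged over the times took at most 3.2%, in SARD1 (percentile 54.9 of all probe sets), against a median of 2.6%. Treatment by time took 11.6% in ICS1, 4.0% in SARD1 and no more than 3.5% in the others, against a median of 5.2%. Replicate number took 60.1% in CBP60g, which makes it the one of the 5 with the largest such share, 29.9% in ICS1, 20.4% in SARD1, 20% in EDS5 and 15.7% in PBS3, with a median of 29.3%. What was left was 2.2% for EDS5, 3.6% for SARD1, 5.8% for CBP60g and 6.3% for ICS1, all in the lowest 2.4% of probe sets, and 18.8% for PBS3, against a median of 27.9%.

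**Figure D3:**
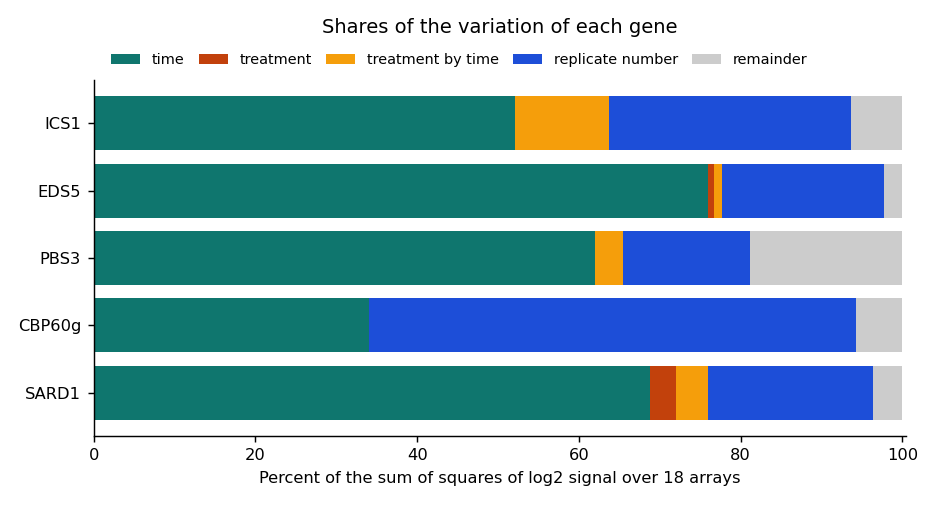
Percent of the sum of squares of log2 signal over 18 arrays that goes with time, treatment, their combination, replicate number and the remainder, 1 bar per gene. Time takes from 34.0% (CBP60g) to 75.9% (EDS5), replicate number takes 60.1% of CBP60g, and the treatment by time share is largest in ICS1 (11.6%).

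Replicate 3 had the highest signal in all 6 groups for ICS1, EDS5, CBP60g and SARD1, and in 4 of 6 for PBS3. Averaged over groups, replicate 3 exceeded replicate 1 by 1.86 on the log2 scale in CBP60g, 1.36 in EDS5, 1.07 in ICS1, 0.99 in SARD1 and 0.63 in PBS3. The median of that difference over all probe sets was 0.029, and 5% of them had more than 1.46. Among all probe sets CBP60g stood at percentile 97.9, EDS5 at 93.8, ICS1 at 89.2, SARD1 at 87.7 and PBS3 at 77.7. The mean 3' over 5' log2 ratio was 1.96 in replicate 1, 1.55 in replicate 2 and 1.47 in replicate 3, and the median signals of the arrays were 26.7 to 32.4 in replicate 1 and 32.01 to 35.6 in replicate 3. RCA also moved with replicate number, with 1343 to 2192 in replicate 1 of 5 groups, 3502 in that of silwet at 52 h, and 2918 to 4055 in replicates 2 and 3. The part of these 3 measures in the higher signals of replicate 3 was not tested.

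**Figure D4:**
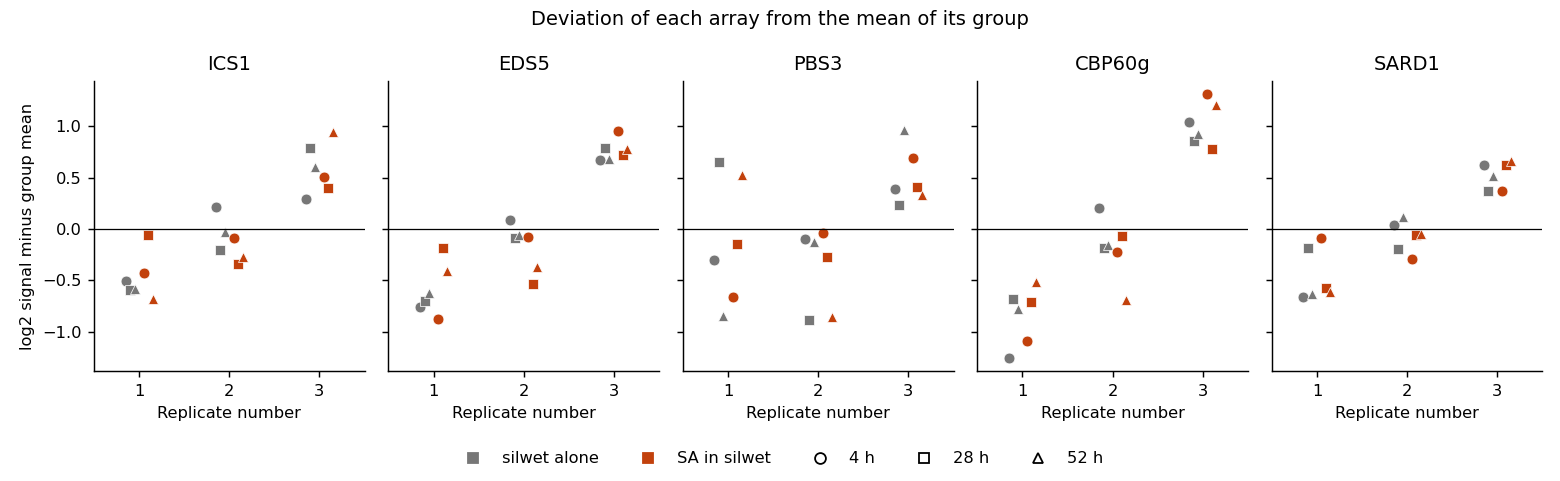
Log2 signal of each array minus the mean of its group, by replicate number, with treatment by colour and time by symbol. All replicate 3 points lie above 0, and the replicate 1 points of PBS3 lie on both sides of it.

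The genes varied together across arrays. Over the 18 arrays Pearson's r of log2 signal between 2 of the genes ran from 0.72 (PBS3 and SARD1) to 0.91 (ICS1 and EDS5). For deviations from the group means, which leave out time and treatment, r ran from 0.50 (ICS1 and PBS3) to 0.96 (EDS5 and CBP60g), and the 4 pairs with PBS3 were the lowest. These values are descriptions, since the arrays share replicate number and scaling. Genes with 1 named gene per probe set whose log2 signal was most like each of the 5 over the 18 arrays were taken from 8273 candidates. For CBP60g they were SBT3.3, a subtilase known from immune priming (r of 0.96), AT5G38710 (0.95) and the transcription factor gene WRKY6 (0.93). For EDS5 they were AT3G50910 (0.96), AT3G54150 (0.94) and BIK1, a receptor-associated kinase of immune signalling (0.94). SARD1 shared AT3G54150 (0.95) and was also near AT1G61420 (0.96) and AT4G35110 (0.95). For PBS3 they were AT2G32190 (0.94), AT5G40690 (0.93) and the calmodulin-like gene CML37 (0.93). ICS1 had the lowest of these values, with AT2G38240, AT5G57480 and AT4G29780 between 0.87 and 0.88. For comparison, the 95th percentile of all candidates was 0.60 for ICS1 and 0.76 for SARD1.

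Because the 4 h changes of SARD1 and ICS1 had opposite signs while both genes moved with replicate number, their difference within each array was also taken, a comparison chosen after the values were seen. At 4 h log2 SARD1 minus log2 ICS1 was 3.00, 2.45 and 2.52 after SA and 0.89, 0.87 and 1.38 after silwet. The groups did not overlap, and the difference was higher after SA by 1.61, that is 3.06-fold, with an SD of 0.30 after SA and 0.29 after silwet (n = 3). At 28 h it was 0.63, 1.42 and 1.36 after SA and 1.84, 1.44 and 1.01 after silwet, with overlapping groups. At 52 h it was 1.502, 1.66 and 1.15 after SA and 1.73, 1.91 and 1.68 after silwet, so the silwet arrays were the higher ones. The two-sided exact permutation p was 0.1 at 4 h and at 52 h, the smallest that 3 against 3 arrays allow, and 0.4 at 28 h. Over the 30 comparisons of 10 gene pairs at 3 times the lowest Benjamini-Hochberg adjusted exact permutation p was 0.5. Of the 10 pairs at 4 h SARD1 and ICS1 had the largest change, followed by SARD1 and PBS3 (1.33). SARD1 had the highest and ICS1 the lowest single change at 4 h, so the first rank of their pair was given beforehand. SA and silwet arrays did not overlap for 3 of the 10 pairs at 4 h, 1 at 28 h and 2 at 52 h. Those of 4 h all held SARD1, and the 10 pairs share their 5 genes. No share over other pairs of probe sets was taken, so these counts are not read as a result about the genes. Since the signals of different probe sets are not on 1 scale, only the change in the difference is given here. The pair was picked for the opposite signs of its changes at 4 h, so the gap at that time restates them. With 3 against 3 arrays the permutation p cannot fall below 0.1, before or after adjustment. It could thus not reach the threshold used here whatever the gap, and no conclusion is drawn from it.

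**Figure D5:**
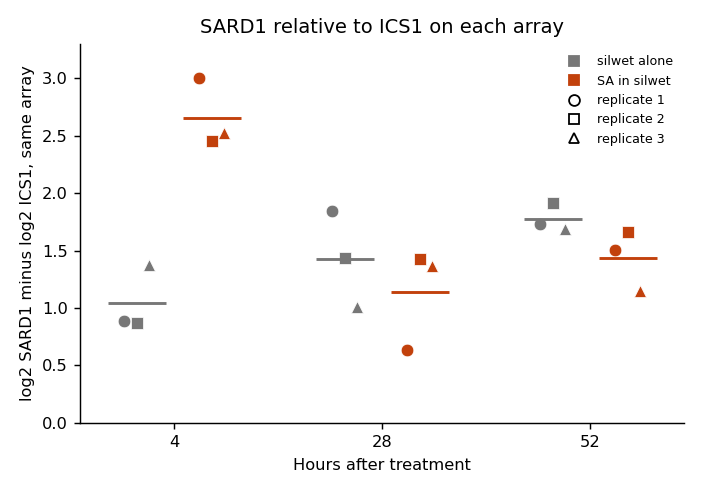
Log2 signal of SARD1 minus that of ICS1 on the same array against hours after treatment, with silwet alone in grey, SA in silwet in orange, replicate numbers as symbols and group means as bars. At 4 h the 3 SA arrays (2.45 to 3.00) lie above the 3 silwet arrays (0.87 to 1.38), and at 52 h they lie below them.

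Other genes of SA synthesis, control and turnover were taken from 6 lists of 76 genes, of which 17 had a named probe set and 12 could be tested. At 4 h 2 of the 12 rose after SA in limma without a block and 0 fell, against 0.795% of all probe sets called, 0.473% as higher. SARD4, of N-hydroxypipecolate synthesis, had a signal of 523, 449 and 382 after SA and 132, 167 and 173 after silwet (log2 change 1.52, SE 0.28, adjusted p = 0.0174). UGT76B1, a glucosyltransferase that acts on SA and related compounds, had 1598, 2378 and 2116 after SA and 91.8, 205 and 322.2 after silwet (log2 change 3.46, SE 0.76, adjusted p = 0.0461). The SA and silwet arrays of neither gene overlapped, as for 18% of all probe sets. The same 2 passed with the block, which called 6.65% of all probe sets, 2.99% as higher. Among the 3 genes of chorismate supply and isochorismate transport, DHQS had -0.24, DHS3 -0.15 and EDS5H, a relative of EDS5, -0.49, and none passed. DHS3, an entry enzyme of the shikimate pathway that makes chorismate, had a signal of 394, 471 and 642 after silwet at 4 h and 239.8, 239 and 268.5 at 28 h. Those arrays did not overlap, as for 11.8% of all probe sets, with 7.35% lower at 28 h. DHS3 fell with the block (log2 change -0.98, SE 0.21, adjusted p = 0.0142) but not without it (SE 0.26, adjusted p = 0.121), the only gene of these lists to do so. Of all probe sets 3.45% were called as lower with the block, and 0.605% were called in either direction without it. Of the CBP60 family, CBP60B had 0.51 (SE 0.73) and CBP60C -0.79 (SE 0.64) at 4 h after SA and neither passed. CBP60D was below the filter level on 17 of 18 arrays and CBP60E and CBP60F on all 18. The other tested genes of the lists, among them AIM1, a beta-oxidation enzyme (-0.60), and EIN3, a repressor of ICS1 (-0.0077), did not pass at 4 h. GH3.5 had 0.43 and SAG101 0.15. BSMT1, of SA modification and turnover, had the largest fall (log2 change -1.86, SE 1.07, adjusted p = 0.524 in limma without a block). Its signal was under the filter level on 2 of the 3 SA arrays. At 28 h and at 52 h 0 of the 12 genes passed in either fit, as for all probe sets. ICS2, NPR1 and the TGA and WRKY factors that regulate these genes were not analysed here.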

How the data were processed

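For each of the 18 arrays the authors deposited a column of intensity on a linear scale, made with MAS5 per the submitters' processing notes. The sources used here name neither its version nor a target. Trimmed means of 99.957 to 99.965 show that the arrays had been scaled to 1 level.

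The log2 of the deposited signal was used, without the 64 control probe sets. Limma 3.58.1 in R 4.3.3 was fitted with 6 group means (lmFit, eBayes with an intensity trend). With 3 arrays a group, their number limits precision. The p values set a difference against the spread between biological replicates as labelled. With the block, the part of that spread that goes with replicate number is taken out. The members and lists were chosen with earlier results of these data known. Named genes are the 5 members, members of the lists, and for each member the 3 probe sets with 1 gene of highest r over 18 arrays. The annotation names 13513 probe sets by 1 gene, 503 by several and lists 14016 of 22810; 13436 matched the gene table, and 8305 with 1 gene were tested.

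Replicate numbers come from the labels. Correlations of the deviations of same-numbered arrays were between 0.18 and 0.71 for SA and silwet at 4 h, between 0.61 and 0.82 at 28 h and between 0.20 and 0.36 at 52 h. They were 0.39 to 0.63 for silwet at 28 h against 4 h, 0.16 to 0.43 for silwet at 52 h against 28 h and 0.46 to 0.76 for SA at 52 h against 28 h. All exceeded 0.1, so the block is printed beside those results. For SA at 28 h against 4 h 2 of 3 pairs did, and for the contrasts of SA effects 16 of 18, so there the block stands with the alternatives. The cut was applied to each comparison, but the block is fitted to all 18 arrays at once. Over all groups 41 of 45 pairs exceeded it. Replicate 2 of SA at 4 h correlated at 0.18 with that of silwet at 4 h and at 0.032 with that of silwet at 28 h. Passing the cut thus does not show that the numbers pair the arrays.

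Alternatives were the block, an offset of 5.53, median centring, quantile normalization, the filter moved to the 60th percentile or left out, no trend, only the arrays compared, the 3' over 5' ratio (actin, GAPDH and ubiquitin controls) as a covariate, and leaving out each array. Added after seeing the data were the block with that ratio, the block with each array left out, and all replicate 3 arrays left out. The fit was tested on simulated data in which same-numbered arrays shared replicate effects. That test takes the pairing as given and cannot show whether the replicate numbers pair the real arrays. Exact tests used SciPy 1.17.1 and figures matplotlib 3.10.9. Promoter and protein sequences were not used here.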

Additional observations from a re-analysis of the deposited data

Results flagged for a closer look

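The SA effect on ICS1 at 52 h minus that at 4 h was 1.23 on the log2 scale. It is listed because the SA array was the lower one in each of the 3 replicate numbers at 4 h and the higher one in each at 52 h. Limma's test of the difference itself did not pass (adjusted p = 0.890, unadjusted p = 0.0708), so the difference between the times is not shown. Without an array of either time the value lay between 0.75 and 1.57.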

How the results depend on the processing

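Over the planned and added settings other than leaving out 1 array, the number of the 5 genes called moved from 0 or by over 1.5 times in 10 cases and did not in 89. For SA against silwet at 4 h it went from 0 to 2 with the replicate block and to 1 with the block and the 3' over 5' ratio (SARD1). For silwet at 28 h against 4 h it went from 0 to 5 with the block and with the block and ratio, to 1 with the ratio alone (EDS5, adjusted p = 0.0389) and to 1 with the offset (EDS5, adjusted p = 0.0493). For SA at 28 h against 4 h it went from 2 to 1 without the filter, without the trend, with only the arrays compared and without all replicate 3 arrays, EDS5 being lost each time (adjusted p from 0.0535 to 0.0872). The cause was not tested. With the replicate block the same comparison gave 3 of the 5 (CBP60g added, adjusted p = 0.00413) and 3756 of all probe sets in place of 1769. Deviations of its same-numbered arrays correlated at 0.63 and 0.64 in replicates 1 and 3 but at 0.088 in replicate 2. The numbers are thus not shown to pair all of these arrays. With the block the SA effects at 28 h and 52 h against 4 h gave 0 of the 5, and 119 and 126 of all probe sets in place of 4 each. The lowest adjusted p of the 5 in limma were 0.125 and 0.0866, with 3 and 2 at an unadjusted p under 0.05 in place of 0. CBP60g passed for SA at 28 h against 4 h in 6 of 6 blocked fits without 1 array. The guard cell gene GC1 was also lower there with the block (log2 difference -0.74, adjusted p = 0.0101, and 0.0572 without it). The block changed no other call of the 5.

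With 1 array left out and no block, 0 of the 5 were called for SA at 4 h. For silwet at 28 h against 4 h 0 or 1 were called, the fit with 1 calling 110 of all probe sets. For SA at 28 h against 4 h 1 or 2 were called, the fits with 1 calling 888 to 1399 of all probe sets. With the block 0 to 2 were called for SA at 4 h, with 361 to 805 of all probe sets where any was. The blocked fits called 3 to 5 for silwet at 28 h against 4 h, with 270 to 597 of all probe sets. For SA at 28 h against 4 h they called 3 each time. The values that changed sign without 1 array, with or without the block, were small ones. For CBP60g they ran from -0.65 to 0.55 for SA at 4 h, from -0.47 to 0.35 at 28 h, from -0.66 to 0.41 at 52 h, from -0.63 to 0.57 and from -0.66 to 0.60 for the SA effect at 28 h and 52 h against 4 h, from -0.90 to 0.087 for SA at 52 h against 28 h and from -0.79 to 0.10 for silwet at 52 h against 28 h. For EDS5 they ran from -0.55 to 0.37 for SA at 4 h, from -0.19 to 0.54 at 52 h, from -0.16 to 0.75 for the effect at 52 h against 4 h and from -0.68 to 0.069 for silwet at 52 h against 28 h. For PBS3 they ran from -0.11 to 0.80 at 28 h and from -0.36 to 0.55 at 52 h, and for ICS1 from -0.032 to 0.78 at 52 h. For SARD1 they ran from -0.28 to 0.32 at 28 h, from -0.23 to 0.41 at 52 h, from -0.45 to 0.19 for SA and from -0.45 to 0.12 for silwet at 52 h against 28 h. Other settings turned EDS5 at 4 h (0.22 with the ratio, 0.036 with median centring), CBP60g at 52 h (0.19 and 0.016), CBP60g at 4 h (-0.13) and its SA effect at 28 h against 4 h (0.090) without replicate 3 arrays, SARD1 at 28 h (-0.070 with the ratio, -0.095 without replicate 3 arrays) and PBS3 at 52 h (-0.083 with block and ratio).

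Over all probe sets, calls for SA at 4 h went from 121 to 1011 with the block, 823 with block and ratio, 205 with the ratio, 187 with the stricter filter, 11 with only the arrays compared and 5 without replicate 3 arrays. For silwet at 28 h against 4 h they went from 92 to 654, 681 and 146 in the first 3 of these, 54 with median centring, 4 with only the arrays compared and 16 without replicate 3 arrays. For SA at 28 h against 4 h they went from 1769 to 3428 with block and ratio, 854 with only the arrays compared and 362 without replicate 3 arrays. With 3 arrays a group, the intervals without the block span more than the changes at 28 h and 52 h. A description of promoter motifs was not run, as no promoter sequence was at hand.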

Other observations

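PBS3 departed from the other 4 genes in 2 groups. In silwet plants at 28 h its replicate 1 had the highest signal (119.8, against 41.3 and 89.5), where ICS1, EDS5 and CBP60g were lowest in replicate 1. In SA plants at 52 h its replicate 1 was again the highest (74.6, against 28.7 and 65.3), while replicate 3 was the highest for the other 4. No test was made of this, as it was seen in the values.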
